A study of Homo sapiens with 16 samples.

Results

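Of the 36970 merged regions deposited for the prostate cancer lines C4-2B and MDV-R, 439 (1.19%) were called as m6A peaks in C4-2B alone. A region counted as a member of this set when a peak overlapped it by at least 1 bp in each of the 4 C4-2B peak lists and in none of the 4 MDV-R lists. The calls therefore chose the members, and their strength and absence in MDV-R are described without a test. By the same count 1327 regions were called in MDV-R alone and 9327 were called in all 8 lists.

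MeRIP-seq (sequencing after immunoprecipitation of methylated RNA) pulls down RNA fragments with an antibody against N6-methyladenosine (m6A) and compares them with unenriched input RNA. C4-2B is an enzalutamide-sensitive human prostate cancer line, and MDV-R is an enzalutamide-resistant line obtained from it by serial passage in the drug, so both lines share an origin and each stands for 1 derivation. The study kept MDV-R in medium with enzalutamide and named no drug for the C4-2B medium. Line and current drug exposure therefore cannot be told apart. RNA of both, given as wild type and taken at day 3, came from 4 replicates per line, each with an immunoprecipitated (IP) and an input library, 16 libraries in all. Nothing in the labels says that the replicates were separate cultures, so p-values measure the spread between these samples, which may be technical. A second line is named in the titles of the MDV-R samples, and these were grouped by the line their characteristics give. Peaks lay in 4 of 6 prostate marker genes (KLK2, FOLH1, HOXB13 and SLC45A3) in all 8 lists. KLK3 and TMPRSS2 lacked one in C4-2B replicate 1 alone. No peak was found in 6 of 8 urothelial markers, UPK2 held a peak in all 8 lists, and UPK3A held one in 6.

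m6A is the most common internal modification of messenger RNA. It is written by a METTL3-METTL14 methyltransferase complex, mostly at adenosines within the sequence context DRACH (D is A, G or T, R is A or G, H is A, C or T), of which GGAC is a frequent form. It lies mainly in long internal exons, near stop codons and in 3′UTRs, and proteins of the YTH family that bind it influence the splicing, translation and decay of the transcript. A peak can only be called where the transcript is present, so a call in a single line does not separate methylation from transcript abundance, and in RNA of a whole culture fewer cells that carry a transcript and less of it per cell cannot be told apart.

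The sequences below show, for members in coding exons and 3′UTRs named later, the GGAC closest to the peak summit with 13 nt on either side, because GGAC is a frequent context of m6A and most of these members are described below. All are written 5′ to 3′ on the strand of the gene, from hg38, with GGAC in capitals.
PDZRN4 (coding exon): gcaacccagatgaGGACtgtgaaagattca
TMEM100 (coding exon): tgttctgtcatctGGACtttttttactagc
LBHD1 (coding exon): gaggatgggctttGGACtagaaatagccca
FRY (3′UTR): cagtgagtaatgtGGACagggctatcttag
LINGO3 (3′UTR): ttgctgggggcagGGACaggaaccactgtt
SLC52A3 (3′UTR): ccagcctagactgGGACctgggatttcaat
THUMPD1 (3′UTR): gaaaactaaaactGGACtccttcattacac
In this order they lie at chr12:41572632-41572661 (+), chr17:55720769-55720798 (−), chr11:62669975-62670004 (−), chr13:32298622-32298651 (+), chr19:2287931-2287960 (−), chr20:762940-762969 (−) and chr16:20702994-20703023 (−). The centre of GGAC lay 7 nt from the summit in PDZRN4, 13 nt in THUMPD1, 25 nt in FRY, 31 nt in LINGO3, 37 nt in SLC52A3, 38 nt in LBHD1 and 39 nt in TMEM100. Each of these 7, from coding exons and 3′UTRs, was followed by a, c or t and so was a full DRACH. Of the members named below in non-coding exons, ZNF814 also held a GGAC that was a full DRACH, 41 nt from the summit, and ENSG00000288156 held one at 27 nt that was followed by g and was not. Exonic members in HOXA13, DSG1, GULP1, IGF1R, ZNF730, MGAT1 and SEMA4D, named below, had no GGAC within 50 nt of the summit.

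GGAC lay within 50 nt of the summit in 82 of 177 exonic members (46.3%, 95% Wilson interval 39.1 to 53.7), against 45.3% of 20232 exonic regions in all and 49.95% of 7445 exonic regions called in all 8 lists. In windows of the same width 300 nt away the share among members was 24.6%, and on the opposite strand of the summit window 19.2%. Coding members held it in 48.4% (31 of 64), 3′UTR members in 39.5% (17 of 43) and intronic members in 29.7% (51 of 172), the last against 33.7% of all intronic regions. Taken on each list's own summits, the share among exonic peaks on members was 42.5%, 41.0%, 47.3% and 44.7% in C4-2B replicates 1 to 4 (mean 43.9% ± 2.8, SD, n = 4), and among all exonic peaks of the same lists 47.2% ± 0.8. The lists of both sets overlapped in replicate 3, and the difference was not tested. DRACH, a looser pattern, lay in 90.4% of the exonic windows on members and 88.0% of all exonic windows, and intervals here cover counting error only.

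Introns were the most frequent feature class among the members. By the strongest summit, 172 members (39.2%) lay in an intron, 84 (19.1%) between genes, 64 (14.6%) in coding sequence (CDS), 58 (13.2%) in a non-coding exon, 43 (9.8%) in the 3′UTR, 12 (2.7%) in the 5′UTR and 6 on contigs outside the main chromosomes. The exonic share was 40.3% (95% Wilson interval 35.8 to 45.0), against 79.8% of the regions called in all 8 lists, 54.7% of all merged regions and 46.9% of the regions called in MDV-R alone. With 1 transcript per gene it was 33.5%. Regions called in all 4 C4-2B lists and in 1 to 3 MDV-R lists, 690 in number, had an exonic share of 41.2%. The low exonic share was therefore shared with regions called in part of the MDV-R lists and with those called in MDV-R alone.

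**Figure D1:**
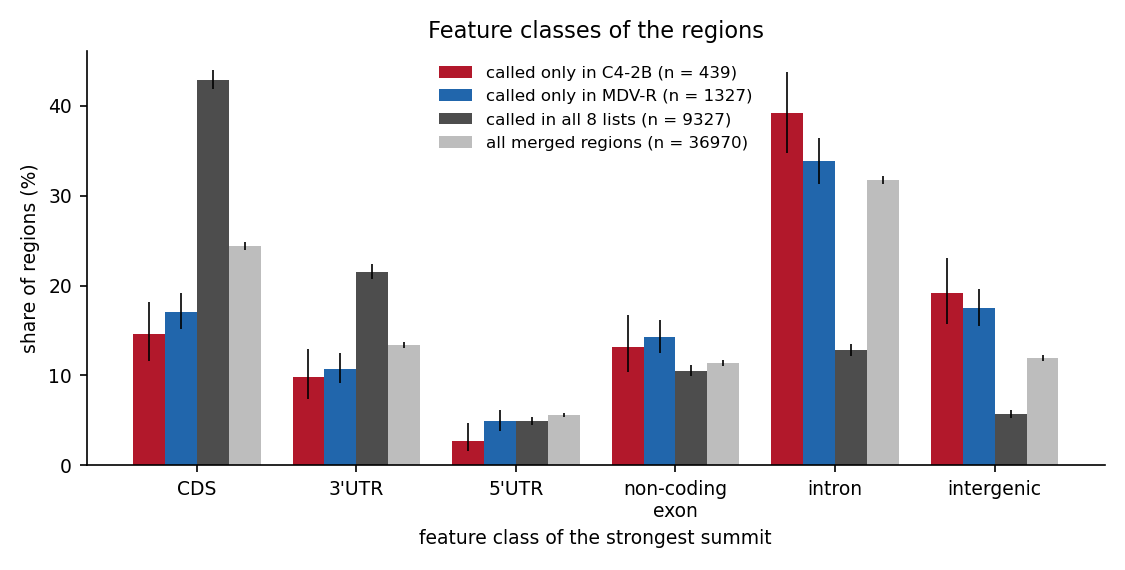
Share of regions (%) in each feature class (horizontal axis) for the 439 regions called only in C4-2B, the 1327 called only in MDV-R, the 9327 called in all 8 lists and all 36970 merged regions, with 95% Wilson intervals. Intronic and intergenic bars are taller, and CDS and 3′UTR bars shorter, in both sets called in a single line than in the regions called in all 8 lists.

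Within protein-coding genes, 106 exonic members could be placed in the canonical transcript, the one that the annotation tags as representative. The last exon held 73 of them (68.9%, 95% Wilson interval 59.5 to 76.9), as against 66.7% of the regions called in all 8 lists. Exons longer than 400 nt held 100 (94.3%), and 24 (22.6%) lay within 200 nt of the stop codon, against 96.3% and 30.4% of the regions called in all 8 lists. These 3 shares of the regions called in both lines lay within the intervals of the members. First exons held 17 members (16.04%, 95% Wilson interval 10.3 to 24.2), against 9.12%, which lay outside. Over all merged regions the shares were 57.9% in the last exon, 83.5% in long exons, 27.2% near the stop codon and 13.3% in first exons, of which the first and the second lay outside the intervals of the members.

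Members had fewer IP reads at the summit than the regions called in both lines. The number of IP reads (tags) at a summit was recovered from the deposited statistics, and the median over members was 20, 22, 20 and 21 tags in C4-2B replicates 1 to 4 (mean 20.8 ± 1.0, SD, n = 4). At regions called in all 8 lists it was 53, 58, 55 and 54 tags (55.0 ± 2.2), so the lists did not overlap. Local background, the level that input reads predict at the summit, is expressed relative to the library-wide average, which is 1 unit. Its median was 3.04 ± 0.31 units at members and 12.2 ± 1.2 at regions called in all 8 lists. Fold enrichment, the deposited ratio of IP to local background with 1 count added to each, differed less. Its median was 9.50 ± 1.23 at members, 10.4 ± 2.0 at regions called in all 8 lists and 7.78 ± 0.38 over all peaks of a list. In C4-2B replicate 1 it was higher at members (7.66) than at regions called in all 8 lists (7.43), and in the other 3 lists lower. The added count lowers the ratio most where background is low, as at members. In library units, without an added count, median IP tags were 63.1 ± 9.7 at members and 167 ± 24 at regions called in all 8 lists. The rule used these calls, so none of this was tested.

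**Figure D2:**
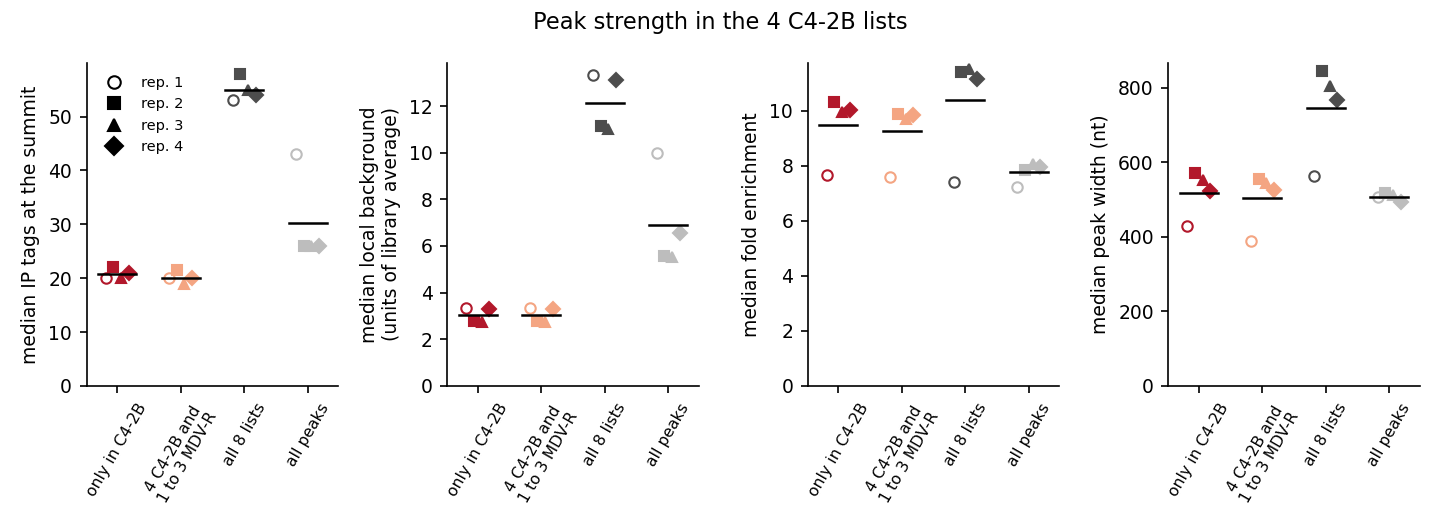
Median over peaks of IP tags at the summit, local background (units of the library average), fold enrichment and peak width (nt) in each C4-2B list, for regions called only in C4-2B, regions called in 4 C4-2B and 1 to 3 MDV-R lists, regions called in all 8 lists and all peaks of the list. Each symbol is 1 replicate and each line the mean of 4. Members sit at 20 to 22 tags in every list and regions called in all 8 lists at 53 to 58.

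Ranked by −log10 p within their list, where 100 is the strongest peak, members had a median percentile of 29.5 in C4-2B replicate 1 and of 53.5, 52.8 and 54.4 in replicates 2 to 4. Replicate 1 held the shortest list, 13191 peaks against 23254 to 24746 in the other 3. Fold enrichment was lowest in replicate 1 at 226 of the 439 members (51.5%), and the median coefficient of variation over the 4 lists was 26.6% for fold enrichment. The MDV-R lists held 23880 to 30645 peaks. In all 4 lists 87 members exceeded the list median, and 6 lay in the top 10%. A −log10 q of at least 5 was reached in every list by 391 members, and 5 members fell under 3 in at least 1. The median −log10 q was 16.55 ± 4.14 at members and 16.60 ± 0.47 over all peaks of a list (SD, n = 4 lists). Among members, mean fold enrichment ran from 4.59 to 26.9 with a median of 9.53, and mean IP tags from 7.25 to 161 with a median of 21.0.

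Regions just outside the rule were close to the members in strength when MDV-R made the difference, and weaker when C4-2B did. The 729 regions called in 3 of 4 C4-2B lists and no MDV-R list had a median of 13 tags per call and a fold enrichment of 7.37, and 640 of them lacked replicate 1. Without C4-2B replicate 1, therefore, 1079 regions would be called only in C4-2B, in place of 439. The 177 regions called in 4 C4-2B lists and 1 MDV-R list had 19 tags and a fold enrichment of 8.88 in C4-2B, and a median of 8 tags in the MDV-R list that called them. Members themselves had medians of 21 tags and 9.25 over the same calls. When every list was limited to the size of the shortest, 567 regions met the rule and 200 of the 439 were among them.

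The members spanned a median of 697 nt (from 281 to 3468), wider than the 537 nt of all merged regions and narrower than the 1090 nt of regions called in all 8 lists. Of the 439, 118 were wider than 1 kb and 11 wider than 2 kb. Median width was 728 nt for exonic, 646 nt for intronic and 717 nt for intergenic members. Peaks on members measured a median of 428, 571, 551 and 523 nt in replicates 1 to 4, against 493 to 517 nt over all peaks of these lists. The 4 lists placed the summit within 50 nt of each other at 149 of the 439 members and within 100 nt at 230, and the range over lists had a median of 92 nt and a maximum of 2759 nt. In HRNR, a gene of highly repetitive sequence, neighbouring members were covered by a single peak in some lists, one of 3 groups in which 6 members shared a peak.

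By the rule no MDV-R peak can overlap a member, so distances to the nearest one are given without comparison to other regions. Within 500 nt of an MDV-R peak lay 17 of the 438 members on a chromosome with MDV-R peaks (3.88%), and 134 (30.6%) were more than 100 kb from any. The median was 33.7 kb overall and 61.1 kb for intergenic members. The shortest distance, 15 nt, was at a member in ZNF814, which therefore borders a region called in MDV-R.

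The 349 members inside a gene fell in 292 genes, 211 of them protein-coding and 60 lncRNA genes. These were 2.18% of the 13404 genes with any merged region. Most genes, 253, held a single member, 27 held 2, 9 held 3, and 1 each held 4, 5 and 6. For 105 members the summit fell on more than 1 gene, and overlapping genes were not told apart by read strand.

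MDV-R had no peak anywhere in 149 of the 292 genes (51.0%, 95% Wilson interval 45.3 to 56.7), and peaks in all 4 lists in 100 (34.2%). Among all 6875 genes with a region called in 4 C4-2B lists, the shares were 2.24% and 93.9%. The rule removes MDV-R peaks from the member itself, so genes with few regions are bound to be high here, and 96 of the 292 genes had no region other than members. For lncRNA genes the share without an MDV-R peak was 56.7% (34 of 60) and for protein-coding genes 46.0% (97 of 211). In 11 genes (among them PPFIA2, EPHA6, KCNMB2, RXRA and PKD1) regions called only in C4-2B stood beside regions called only in MDV-R.

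**Figure D3:**
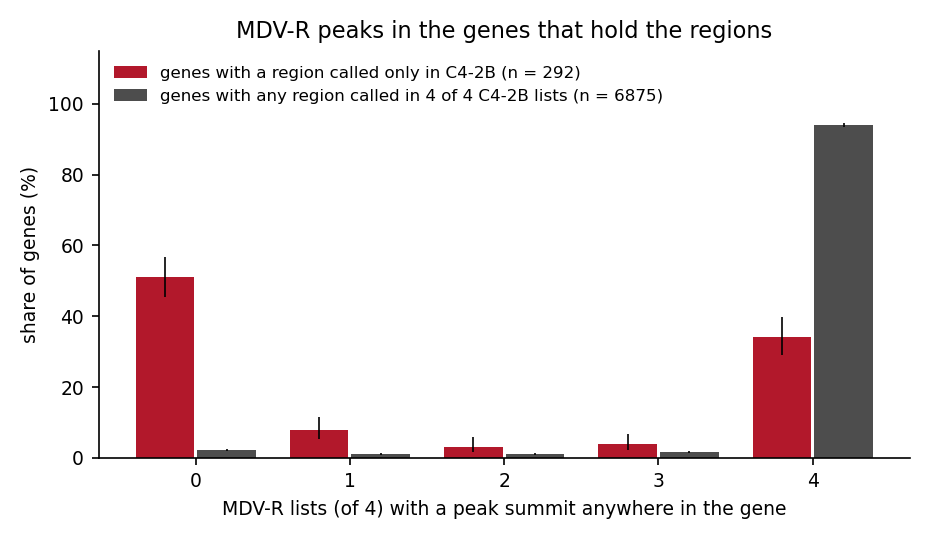
Share of genes (%) by the number of MDV-R lists, of 4, with a peak summit anywhere in the gene, for the 292 genes with a region called only in C4-2B and the 6875 genes with any region called in 4 of 4 C4-2B lists, with 95% Wilson intervals. Genes that hold a member stand at 0 lists in 51.0% and at 4 lists in 34.2%.

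Ranked by mean percentile and taking the strongest member of each gene, the first 10 genes were PPFIA2, HOXA13, ZBTB16, SMIM41, ZNF814, DSG1, PDZRN4, GULP1, TMEM100 and ENSG00000288156. Of these 10, 6 had no MDV-R peak, beside 51.0% of all 292 genes with a member. In HOXA13, DSG1, TMEM100 and ENSG00000288156 every region was a member, so the rule itself removed MDV-R peaks from them. First was an intronic member of PPFIA2, which encodes liprin-alpha-2, a scaffold of the presynaptic active zone (chr12:81665605-81666780). Its fold enrichment was 9.96, 14.5, 17.2 and 15.4 in C4-2B replicates 1 to 4 (mean 14.3 ± 3.1, SD, n = 4), over 156 to 166 IP tags, and its summit moved by 3 nt over the lists. PPFIA2 held 5 members, all intronic and one more of them (mean percentile 97.0) ranking above HOXA13, with mean fold enrichments from 5.52 to 14.3, and MDV-R had 7, 6, 5 and 11 peaks elsewhere in this gene. HOXA13, a homeobox factor of distal limb and urogenital patterning, held 2 members, one of them in its coding exon 2 of 2, with the summit 48 nt before the stop codon (chr7:27197626-27198622). There fold enrichment was 24.5, 16.2, 40.1 and 18.8 (24.9 ± 10.7), over 88 to 97 tags. Local background there was 6.66, 14.7, 3.92 and 13.1 units, and the tags varied less. No MDV-R list had a peak in HOXA13.

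ZBTB16, which encodes the zinc finger repressor PLZF, held an intronic member at chr11:114060328-114061674. Fold enrichment was 14.6, 26.7, 21.3 and 22.1 (21.2 ± 5.0) over 88 to 109 tags, and the nearest MDV-R peak was 1347 nt away. In SMIM41, which encodes a small membrane protein, an intronic member reached 17.1, 33.5, 20.2 and 24.4 (23.8 ± 7.1). DSG1 encodes desmoglein 1, a desmosomal cadherin, and its member in a non-coding exon had 12.6, 26.9, 26.2 and 27.2 (23.2 ± 7.1), with replicate 1 apart from the others. PDZRN4, a gene for a protein with RING and PDZ domains, had a member in its last exon with the widest spread of these, at 9.25, 19.1, 30.02 and 32.9 (22.8 ± 10.8). TMEM100, a transmembrane protein gene downstream of BMP receptor signalling in endothelium, held its only region in its coding exon, with 14.3, 25.8, 27.3 and 24.1 (22.9 ± 5.9). The lncRNA gene ENSG00000288156 had 15.3, 34.0, 24.0 and 16.6 (22.5 ± 8.6). MDV-R had no peak in DSG1, PDZRN4, TMEM100 or ENSG00000288156, and in SMIM41 a single list had 1.

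High rank did not need a high ratio. GULP1, an adaptor for the engulfment of apoptotic cells, had a 5′UTR member with 148 to 166 IP tags but a fold enrichment of 4.10, 7.52, 8.79 and 6.84 (6.81 ± 1.98), as its local background was 57.8 to 93.2 units. ZNF814, a zinc finger gene, had 116 to 125 tags at 6.29, 8.27, 13.7 and 12.9 (10.3 ± 3.6). Both had input reads far above the median member. MDV-R had no peak in GULP1 in any list, and on average 3.75 per list in ZNF814.

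**Figure D4:**
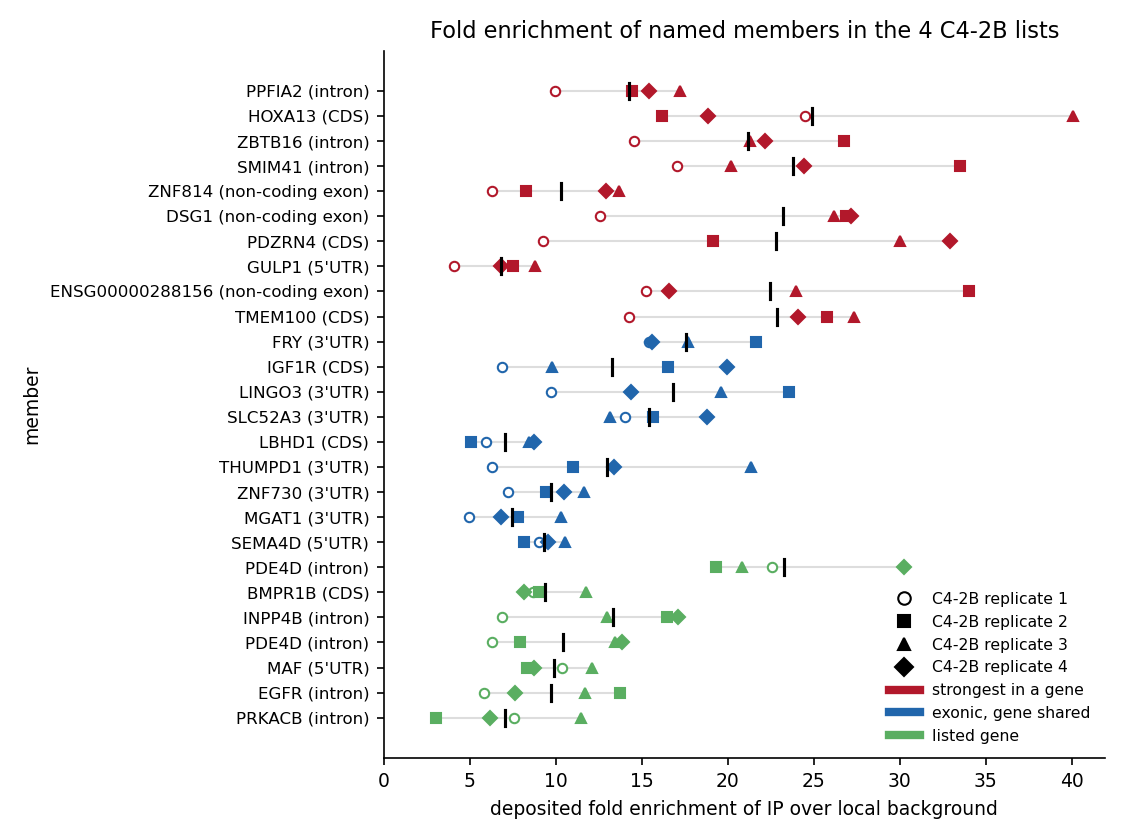
Deposited fold enrichment (horizontal axis) of the members named by rule, 1 row per member with its gene and feature class, in the 4 C4-2B lists (symbols, open for replicate 1) with the mean as a vertical bar. Colours mark the strongest members inside genes, exonic members in genes with a region called in all 8 lists, and members in genes of the listed pathways. Replicate 1 is the lowest point for most of the strongest members, and the HOXA13 values run from 16.2 to 40.1.

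Of the 12 genes with 3 or more members, 7 had no MDV-R peak in any list, beside 51.0% of all 292 genes with a member. The rule itself removed MDV-R peaks from their members. GRIN3A, the gene of an NMDA receptor subunit, held 4 members in 5 regions, 3 in coding exons and 1 in the 5′UTR, with mean fold enrichments of 8.27 to 21.3. C4-2B had 4, 5, 5 and 4 peaks in it and MDV-R none. AFF3, a transcription elongation factor of the AFF family, had the most members, 6, of which 4 lay in introns within 7.68 kb, 1 in the 3′UTR 41 nt past the stop codon and 1 in the 5′UTR. Here C4-2B had 8, 12, 9 and 11 peaks and MDV-R 0, 3, 1 and 0. PTGFR, the prostaglandin F receptor, had 4, 6, 7 and 6 peaks in C4-2B and none in MDV-R, and its strongest member was intronic with 8.12, 15.6, 17.6 and 9.44 (12.7 ± 4.6). ALPK2, an alpha-kinase gene, held 3 members, 2 of them in coding exon 5 of 13, and HRNR, which encodes the epidermal protein hornerin, held 3 in its long coding exon. GULP1 and the lncRNA genes ENSG00000232855 and ENSG00000260289 completed the genes of 3 members without any MDV-R peak.

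Others of these genes had MDV-R peaks. GLYATL1, a glycine N-acyltransferase-like gene, had 5, 8, 8 and 7 peaks in C4-2B and 1, 1, 1 and 2 in MDV-R. ANKRD11, a chromatin regulator, had 9, 19, 16 and 17 against 8, 8, 8 and 12, and its 3 members were all intronic and of low to middle rank (mean percentiles 22.03 to 52.99). In ZNF730, a zinc finger gene on chromosome 19, the 4 or more C4-2B peaks per list stood against 1 in each MDV-R list.

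Some members lay near each other, but runs were not counted for other sets of regions, so nearness is not shown to be particular to members. By runs of 3 or more members with gaps of at most 200 kb, 22 clusters held 79 members, and 14 of the 22 had no MDV-R peak in any of their regions. Some of the 14, such as those in HRNR and AFF3, held no region other than members, so the rule itself removed MDV-R peaks from them. The most members, 6 each, were in 82.0 kb of chromosome 11 around GLYATL1 and in 132 kb of chromosome 19 around PGLYRP2, a peptidoglycan-recognition amidase gene. In the PGLYRP2 cluster C4-2B had 7, 10, 10 and 9 peaks and MDV-R had none. Around GLYATL1 there were 6, 9, 9 and 7 in C4-2B and 1 in MDV-R replicate 4. A cluster over HOXA5 and HOXA13, 56.8 kb long, held 4 members among 15 regions, of which 7 had an MDV-R peak. An intergenic cluster on chromosome 13 spanned 4.54 kb, and all 3 of its regions were members, so the rule left no MDV-R peak in them.

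Transcription factor genes of the homeobox, SOX, FOX, TBX, POU and KLF families held members in 4 of 101 genes with any region (3.96%, against 2.05% of protein-coding genes): FOXC1, HOXA13, HOXA5 and TBX15. TBX15, a skeletal T-box factor, had a 3′UTR member at 18.0, 14.4, 21.4 and 22.1 (19.0 ± 3.5) and no MDV-R peak in the gene. Ion channel genes held members in 8 of 101 (7.92%), including GRIN3A, KCNMA1 and CACNA1H, and G protein coupled receptors in 6 of 76 (7.89%). Genes of semaphorins, plexins, ephrins and SLIT-ROBO proteins, which guide axons and cell contacts, held them in 4 of 57 (7.02%), namely EPHA5, EPHA6, SEMA4D and UNC5C. Zinc finger protein genes, the largest family, had 10 of 499 (2.00%), solute carriers and ABC transporters 5 of 241 (2.07%), matrix proteins and integrins 1 of 75, and protein phosphatases 0 of 87. Regions called only in MDV-R lay in 15 of the same 101 ion channel genes and 13 of the 76 receptor genes. They lay in 10 of the 57 guidance genes and 3 of the 101 transcription factor genes, beside 682 of all 10309 protein-coding genes. The higher shares of channel, receptor and guidance genes are therefore not particular to C4-2B. The families were not tested and the numbers are small.

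Few genes of the listed pathways that matter in prostate cancer held a member. A list of prostate genes did so in 1 of 25 with a region (MAF), growth factor receptor genes in 2 of 20 (EGFR and IGF1R), insulin and PI3K genes in 1 of 22 (INPP4B), WNT, NOTCH and TGF-beta genes in 1 of 42 (BMPR1B) and protein kinase A genes in 2 of 22 (PDE4D and PRKACB). None was found among 20 genes of the m6A machinery, 19 of epithelial-mesenchymal transition and adhesion, 6 neuroendocrine and 4 androgen metabolism genes. In the lists with a member the share was 2.38% to 10%, beside 2.05% of all protein-coding genes with a region. These lists are short and were not tested. The study chose 12 genes on these samples for targeted follow-up, so they are no independent evidence, and PRKACB alone among them held a member. This member was intronic, whereas the study's targeted m6A assay of PRKACB was of an exonic region.

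IGF1R, the receptor of insulin-like growth factor 1, had its member in coding exon 2 of 21 (chr15:98707494-98708090), 159 kb from any MDV-R peak. Fold enrichment was 6.89, 16.5, 9.77 and 19.96 (13.3 ± 6.0, SD, n = 4) over 54 to 62 tags. PDE4D, a phosphodiesterase that degrades cyclic AMP, had 2 intronic members, the stronger at 22.6, 19.3, 20.8 and 30.3 (23.3 ± 4.9) and 572 nt from an MDV-R peak. BMPR1B, a type I bone morphogenetic protein receptor, held its only region across the stop codon, at 8.65, 9.01, 11.7 and 8.16 (9.39 ± 1.61). No list of MDV-R had a peak in the gene, and the rule itself removed MDV-R peaks from this region. INPP4B, a lipid phosphatase that opposes PI3K signalling, had an intronic member at 6.89, 16.5, 12.97 and 17.1 (13.4 ± 4.7), again with no MDV-R peak in the gene. The intronic member of EGFR, the epidermal growth factor receptor, had 5.81, 13.7, 11.7 and 7.61 (9.71 ± 3.64). MAF, a leucine zipper transcription factor, held a 5′UTR member at 10.3, 8.32, 12.1 and 8.74 (9.88 ± 1.72). PRKACB, a catalytic subunit of protein kinase A, had an intronic member, the weakest of these at 7.60, 3.03, 11.4 and 6.17 (7.06 ± 3.49), over 11 to 19 tags. Its −log10 q in replicate 2 was 2.17.

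Some members stood beside regions called in both lines. Of the 349 members inside genes, 79 (22.6%) shared their gene with a region called in all 8 lists, 66 genes in all, and 22 of the 79 were exonic in a protein-coding gene. Without C4-2B replicate 1 this would be 275 of 833 members (33.0%). By gene, 66 of the 292 genes with a member held such a region, beside 6373 of all 13404 genes with a merged region. FRY, the gene of a microtubule-associated protein, had its 3′UTR member in exon 61 of 61 at 15.4, 21.6, 17.7 and 15.6 (17.6 ± 2.9), with 3 other regions called in all 8 lists. LINGO3, a leucine-rich repeat gene, had a 3′UTR member at 9.75, 23.6, 19.6 and 14.4 (16.8 ± 6.0), and SLC52A3, a riboflavin transporter gene, one at 14.0, 15.7, 13.2 and 18.8 (15.4 ± 2.5). THUMPD1, a tRNA acetylation factor gene, had 6.31, 11.0, 21.4 and 13.4 (mean 13 ± 6.3) in its 3′UTR. The exonic members of ZNF730, SEMA4D, MGAT1 and LBHD1 lay lower, with means from 7.05 to 9.71.

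To compare the lines at other regions of these 66 genes, the 106 regions in them that were called in all 8 lists were read from a fit over all 9327 such regions (limma, Benjamini-Hochberg adjusted p under 0.05). The genes were chosen through their members, so an excess toward C4-2B at these sites is not independent of the rule. Some sites also lay close to the member, as in ZBTB16 and SLC52A3. Local background, which follows the input reads around a peak, was higher in C4-2B at 41 of the 106 (38.7%, against 11.0% of all regions) and higher in MDV-R at none (against 1.66%). The 41 lay in 29 genes. The median difference was 0.98 on the log2 scale (C4-2B over MDV-R), against 0.48 over all 9327 regions. With each library centred on its median, which moves the median of all regions by 0.49, the count was 29 of 106 higher in C4-2B and 1 higher in MDV-R, beside 643 and 555 of all regions in place of 1023 and 155. Leaving out MDV-R replicate 1 or 2 gave 26 or 24 of 106. The ratio of input to IP depth was 0.747 to 1.22 in C4-2B and 1.56 to 3.15 in MDV-R, so the input depth and the line cannot be told apart. Without MDV-R replicate 3, whose ratio was the lowest of its line, 2887 of all 9327 regions were called higher in C4-2B, and without any of MDV-R replicates 1, 2 and 4 and C4-2B replicates 1, 2 and 4 it was 410 to 670.

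IP tags at the summit, in the same library units, gave a like picture at these sites. They were higher in C4-2B at 41 of the 106 (38.7%, against 14.7% of all regions) and higher in MDV-R at 6 (5.66%, against 19.8%). Those 6 were in ANKRD11, DAB1, MSI2, PDE4D, PKD1 and SH3PXD2A. The median was 0.23 on the log2 scale, against −0.06 over all regions. With libraries centred it was 59 and 7 of 106, with 2518 and 2169 of all regions in place of 1370 and 1844. Without C4-2B replicate 1 the count over all regions was 2267 higher in C4-2B.

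Fold enrichment, in which IP and background are set against each other, gave few calls at these sites. It was higher in C4-2B at 2 of the 106 regions (1.89%, against 0.225% of all regions) and higher in MDV-R at 6 (5.66%, against 3.41%). The median was −0.38 at the 106 and −0.44 over all 9327. With libraries centred the counts were 5 and 1 of 106 and 167 and 79 of all regions in place of 21 and 318, so the direction of most calls of this measure rested on the scaling. Without MDV-R replicate 3, 2016 of all regions and 20 of the 106 were higher in MDV-R. Without MDV-R replicate 1, 2 or 4 or C4-2B replicate 1, 2 or 4 it was 23 to 187 of all regions, and without MDV-R replicate 2 or 4 none of the 106.

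**Figure D5:**
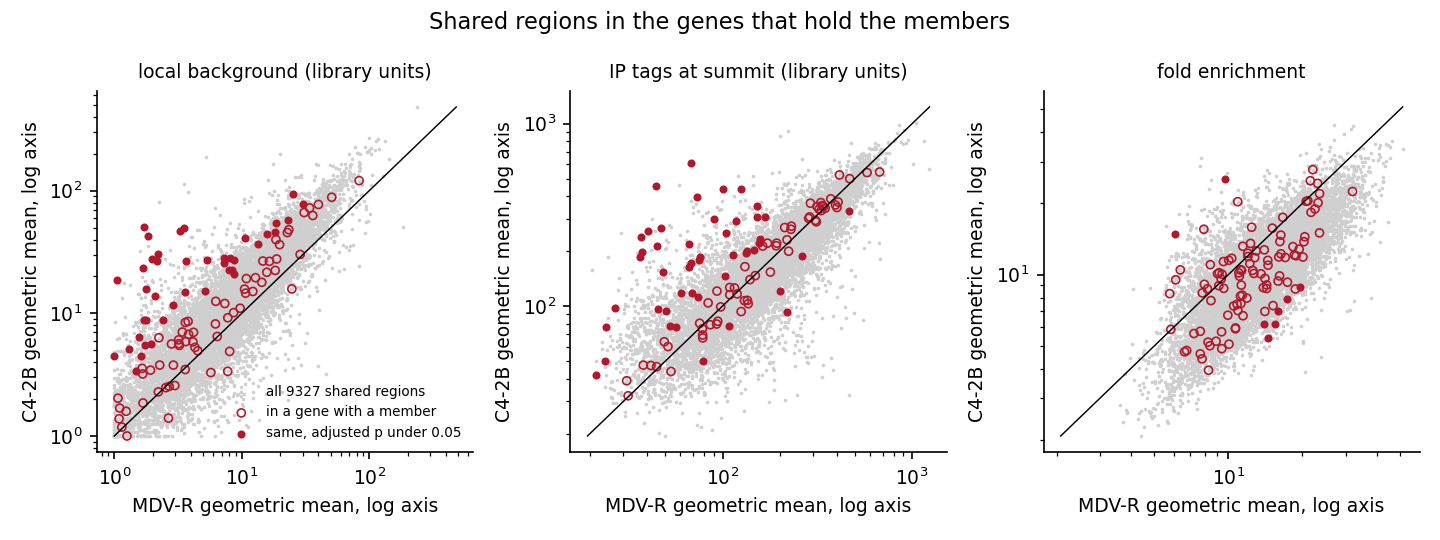
Geometric means of C4-2B (vertical) against MDV-R (horizontal), both on log axes, for local background, IP tags at the summit (both in units of the library average background) and fold enrichment at the 9327 regions called in all 8 lists (grey), with the 106 in genes that hold a member in red, filled where the adjusted p was under 0.05. Red points lie above the line of equality for background at 96 of 106 and for IP tags at 77, and for fold enrichment at 28. Of all 9327 regions, 7058, 4098 and 1477 lie above it for the same 3 measures.

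ZBTB16 had the largest difference in local background among these genes, and SLC10A7 the largest in IP tags. At the ZBTB16 coding region called in all 8 lists (chr11:114062962-114064572), local background was 55.6, 44.5, 44.7 and 58.1 units in C4-2B and 1.35, 3.03, 1.40 and 1.48 in MDV-R, a log2 difference of 4.88 ± 0.40 (SE, limma adjusted p = 2.9e-07). IP tags there were 482, 630, 653 and 709 units against 53.3, 76.5, 67.2 and 80.3, a log2 difference of 3.16 ± 0.17 (adjusted p = 1.4e-18). The groups did not overlap in either measure. SLC10A7, a solute carrier gene with 2 members, differed as much at an intronic region (chr4:146322224-146323957), by 4.54 ± 0.39 in background (adjusted p = 4.0e-07) and 3.36 ± 0.16 in IP tags (adjusted p = 1.0e-19). At this site C4-2B had 43.9, 41.5, 52.3 and 34.8 units of background and MDV-R 1.21, 2.02, 1.86 and 2.47. In ZNF730 background at an intronic region was 19.97, 19.5, 11.0 and 29.6 units in C4-2B and at the library minimum of 1.00 in 3 MDV-R lists, with 1.24 in replicate 4 (log2 difference 4.16 ± 0.40), a value set by that minimum. ENSG00000229491 and PCAT1, both lncRNA genes, the second known as a prostate cancer-associated transcript, differed by 3.83 ± 0.41 and 3.81 ± 0.43 in background. CCDC85A had a difference of 2.68 ± 0.19 in IP tags at a 5′UTR region.

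IGF1R showed the same direction at both of its regions called in all 8 lists. In its 3′UTR local background averaged 15.9 units in C4-2B and 1.78 in MDV-R, a log2 difference of 3.16 ± 0.41 (limma adjusted p = 4.1e-05), and IP tags differed by 2.24 ± 0.17 (adjusted p = 2.4e-14). In its coding sequence the differences were 2.89 ± 0.40 and 1.73 ± 0.16. Fold enrichment differed by 0.25 ± 0.36 (adjusted p = 0.66) and −0.43 ± 0.36 (adjusted p = 0.43) at the 2 sites. FRY had a higher background at all 3 of its regions called in all 8 lists, by 2.04 to 2.73 on the log2 scale. EGFR differed in background at its coding region, 94.7 against 25.02 units (1.92 ± 0.46, adjusted p = 0.010), and not in IP tags (0.34 ± 0.16, adjusted p = 0.094). PRKACB passed the threshold in none of the 3 measures, with 0.70 ± 0.44 in background (adjusted p = 0.29).

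The few differences in fold enrichment were smaller. It was lower in C4-2B at the coding region of EGFR, where it was 4.29, 6.78, 5.22 and 5.51 in C4-2B and 14.5, 24.4, 5.72 and 21.9 in MDV-R (−1.43 ± 0.36, limma adjusted p = 0.011). It was higher in C4-2B in the coding sequence of SLC52A3, at 23.7, 38.7, 19.6 and 23.2 against 9.23, 10.7, 8.94 and 10.0 (1.39 ± 0.36, adjusted p = 0.014), where the groups did not overlap. The local background of this site was at the library minimum in all 4 MDV-R lists, so the MDV-R ratios depend on that minimum. IPPK, the kinase that makes inositol hexakisphosphate, followed at an intronic region (1.28 ± 0.36). THUMPD1 (−1.32 ± 0.36) and STK11, the gene of the kinase LKB1 (−1.18 ± 0.36), were lower in C4-2B. All 5 missed the threshold under at least 1 other setting. In these genes the member's own region was called in C4-2B alone, and its level in MDV-R is not known beyond the missing call.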

How the data were processed

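MeRIP-seq was made from total RNA of 4 C4-2B and 4 MDV-R replicates with a stranded kit. The authors aligned reads to hg38 and called peaks for each IP library over input (STAR 2.7.0, SAMtools 1.10 and MACS2 3.0.0a6 per the submitters' processing notes). Each deposited list gives fold enrichment as a ratio of IP signal over background, −log10 p and −log10 q values, and a score, 10 times the −log10 q rounded down, per peak. The deposited merged list gives positions alone, and how it was merged is not stated.

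Peaks were matched to regions with bedtools 2.31.1 and classed with GENCODE release 44 (the authors used another release), CDS first, then 3′UTR, 5′UTR, non-coding exon and intron. Coordinates are 1-based on hg38.

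IP tags and local background were solved from fold enrichment and −log10 p, taking fold enrichment as the ratio with 1 count added to each. This gave a whole number of tags in 99.99% to 100% of the peaks per list, against 0.65% to 1.0% at a wrong scale. The shortest peaks measured 239 to 293 nt, not the 100 nt of the stated extension, and summit tags summed to 0.718 to 1.09 M per list, above the 0.317 to 0.414 M that those widths and the stated genome size of 300 Mb would give for a whole library. Total depth was therefore not recovered. Tags were scaled by the average background of the library, in place of the scaling by depth first intended, and the ratio of input to IP depth comes from the step of low background values, which fitted 100% of them in 5 lists and 59.1% to 67.0% in MDV-R replicates 1, 2 and 4.

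Regions called in all 8 lists were compared with limma 3.58.1 on log2 values (R 4.3.3), 4 against 4, at an adjusted p of 0.05. No further pseudocount and no filter on low values was applied at this step. Region counts, tag recovery and the fit were tested on simulated data. Alternatives were a 50% overlap, −log10 q of at least 5, equal list sizes, main chromosomes, an own union, a 500 nt margin, 1 transcript per gene, region midpoints, other motif windows, a replicate block, median centring, regions of 1 peak per list, a variance trend and leaving out each library.

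Named were the 10 strongest members inside genes (1 per gene), every gene with 3 or more members, the 10 strongest exonic members in protein-coding genes with a region called in all 8 lists (1 per gene), members in listed pathway genes, and the 5 largest differences of each fit in genes with a member (1 per gene); family members were taken from gene symbol patterns. TBX15 and the genes of clusters and families are named beside their counts. The members and lists were chosen with earlier results of these data known. Genes on chromosome Y and some other genes are not reported here, and the lists, families and markers were counted without the latter.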

Additional observations from a re-analysis of the deposited data

Results flagged for a closer look

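Of 64 groups of 4 values examined, 7 held 1 value far from the other 3, where chance gives about 1 in 20. C4-2B replicate 1 accounted for 5 of them. It stood apart by its number of peaks (13191, against 23254 to 24746), by the median fold enrichment of the members (7.66, against 9.95 to 10.3), by their median percentile (29.5, against 52.8 to 54.4), at the DSG1 member (fold enrichment 12.6, against 26.2 to 27.2) and at the SLC10A7 region (361 units of IP tags, against 490 to 508). In MDV-R, replicate 2 stood apart in the local background of the ZBTB16 region (3.03 units, against 1.35 to 1.48), and replicate 4 in that of the ZNF730 region (1.24, against the minimum of 1.00 in the others).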

How the results depend on the processing

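The number of regions called only in C4-2B was 422 to 567 under the alternatives that kept all libraries, and 463 to 1079 without each library, the highest without C4-2B replicate 1. Their exonic share was 33.5% with 1 transcript per gene. The share of exonic members with GGAC was 23.7% within 25 nt, and 90.4% held DRACH within 50 nt. Members in a gene with a region called in all 8 lists numbered 83 to 275 without each library. Centring on library medians changed the counts over all regions to 643 higher in C4-2B and 555 higher in MDV-R for background, 2518 higher in C4-2B for IP tags, and 167 and 79 for fold enrichment, with 1 of the regions in genes with a member higher in MDV-R in fold enrichment. With regions of 1 peak per list, which leaves 6858 regions, 90 were higher in MDV-R in background and 13 higher in C4-2B in fold enrichment, and in genes with a member 22 were higher in C4-2B in background and 23 in IP tags. Without each library, background was higher in C4-2B at 410 to 2887 regions (24 to 59 in genes with a member) and in MDV-R at 81 to 144, IP tags were higher in C4-2B at 1112 to 2267, and fold enrichment was higher in C4-2B at 3 to 74 and in MDV-R at 23 to 2016 (0 to 20 in genes with a member). The causes were not tested. Same-numbered samples of the 2 lines were not treated as pairs in the main fit. Correlations of their deviations were −0.075 to 0.044, which does not settle whether the samples were paired. A fit with the replicate number as a block gave 1080 and 201 regions for background, 1518 and 2067 for IP tags and 30 and 418 for fold enrichment, higher in C4-2B and in MDV-R. Of 174 alternative values of single named regions, 150 passed the threshold in the same direction, 24 missed it, and none reversed. Low summit counts limit the members: a region with few tags can miss a list by chance, and absence from a list gives no level.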
